A study of Mus musculus with 12 samples.

Results

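The subject is a set of 10 transcription factors that act when thymocytes commit to the T-cell lineage: Bcl11b, Gata3, Tcf7, Lef1, Ets1, Ets2, Id3, Patz1, Runx3 and Bcl6. Every probe whose platform gene symbol was one of these names was taken, which gave 20 of the 45281 probes on the array and covered 9 of the 10 genes. Of these, 16 probes of 8 genes were measured, meaning that their signal exceeded the negative-control beads (detection p under 0.05) on at least 3 arrays. Tcf7, a high-mobility-group factor switched on by Notch, was not analysed here. The 1 probe of Runx3, a RUNX factor of the CD8 and natural killer lineages, was not above background on any of the 12 arrays.

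Total RNA from sorted double-negative thymocytes, the immature precursors without the CD4 and CD8 co-receptors, was hybridised to 12 Illumina mouse arrays. All mice were C57BL/6 and 2 months old. The 3 Lyl1-knockout arrays came from CD2-Lmo2 transgenic mice that lack Lyl1, the 3 CD2-LMO2 arrays from mice with the transgene and intact Lyl1, and the 6 wild-type arrays from mice with neither change. The CD2 element drives Lmo2, a LIM-only adaptor of blood progenitors, in lymphoid cells, and Lyl1 is a helix-loop-helix factor of the same complexes. There is no Lyl1-knockout group without the transgene, and the labels do not say whether the arrays of a group are separate mice, so p-values measure the spread between arrays, which may be technical.

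Commitment is the step at which a thymic precursor gives up its myeloid, natural killer and progenitor options. Notch signals first switch on Tcf7 and Gata3, and Bcl11b then closes the progenitor programme. E proteins, which bind the E-box motif and drive T-cell receptor rearrangement, are held back by Id3, and Ets and Lef1 factors act at T-cell receptor enhancers.

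The arrays were checked before the members were read. The Lyl1 probe (log2 values here and below) ran from 4.80 to 5.03 in Lyl1-knockout thymocytes, where it was not above background on any array, from 10.01 to 11.64 in CD2-LMO2 thymocytes and from 6.66 to 7.25 in wild-type thymocytes. It was thus at least 43.0-fold lower in Lyl1-knockout than in CD2-LMO2 thymocytes (adjusted p = 2.61e-06), the bound taking the dimmest detected probe of each knockout array. The single Lmo2 probe differed by -1.14 ± 0.50 between CD2-LMO2 and wild-type thymocytes (SE; adjusted p = 0.203), and no source used here says whether it reads the transgene. Against wild-type replicates 1 to 3 alone it was lower by the test (-1.89, adjusted p = 0.0429). The wild-type sets themselves differed on it, with means of 6.96 in replicates 4 to 6 and 8.46 in replicates 1 to 3 (-1.50 ± 0.39, adjusted p = 0.0483), a call lost when any 1 wild-type array was left out. Cd8a was above background on no array and Cd4 on 3 of 3 Lyl1-knockout, 1 of 3 CD2-LMO2 and 2 of 6 wild-type arrays, while Cd8b1, the CD8 beta chain, was detected on all 12. Between 37.91% and 42.98% of probes were detected per array.

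Some arrays stood apart. Wild-type replicates 4 to 6 match columns that carry the word NHD13 in the deposited intensity table, which no label explains, and they are given apart from replicates 1 to 3 for the members whose calls differ between the sets. Correlations between arrays of a group, across probes that are not independent replicates, ran from 0.980 to 0.987 in Lyl1-knockout, from 0.920 to 0.963 in CD2-LMO2 and from 0.947 to 0.992 in wild-type thymocytes. CD2-LMO2 replicate 3 was the farthest from its group: across probes, its deviation from the group mean correlated at 0.47 and 0.50 with those of wild-type replicates 5 and 6, and at -0.41 and -0.51 with those of wild-type replicates 2 and 3.

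With the transgene, Id3 and Ets2 were lower than in wild-type thymocytes, by 3.10-fold and 2.05-fold, and no member was higher. When Lyl1 was also absent, both stood above the CD2-LMO2 level, by 2.76-fold and 3.11-fold. Between Lyl1-knockout and wild-type thymocytes no member passed the threshold of an adjusted p under 0.05 (limma's moderated test, two-sided, Benjamini-Hochberg adjustment over all 20651 measured probes). In CD2-LMO2 against wild-type thymocytes the calls were 2 of the 16 probes, where 8.84% of all measured probes passed, 4.18% as lower and 4.65% as higher. In Lyl1-knockout against CD2-LMO2 thymocytes they were also 2 of 16, against 7.03% of all measured probes, 3.25% as higher and 3.78% as lower. Each is 12.5% of the member probes. In Lyl1-knockout against wild-type thymocytes 0 of 16 passed, against 0.707% of all measured probes (0.397% as higher, 0.31% as lower). At an unadjusted p under 0.05 there was 1 of 16 (Ets2), against 11.1% of all measured probes. The comparisons share groups, so their results are not independent of each other.

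The median log2 difference of the 16 probes lay close to that of all measured probes in each genotype comparison. It was 0.09 against 0.02 between Lyl1-knockout and CD2-LMO2 thymocytes, 0.07 against -0.01 between CD2-LMO2 and wild-type thymocytes, and -0.06 against 0.00 between Lyl1-knockout and wild-type thymocytes. Single probes ran from -0.79 to 1.64, from -1.63 to 0.78 and from -0.43 to 0.60 in these comparisons. In bulk RNA, fewer cells of a type and less RNA per cell cannot be told apart.

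Id3 is an inhibitor without a DNA-binding domain that keeps E proteins from their E-boxes and marks pre-T-cell receptor signalling. Its probe (ILMN_2687169) read 8.56, 8.56 and 7.88 on the log2 scale in Lyl1-knockout thymocytes. It read 7.21, 7.16 and 6.23 in CD2-LMO2 thymocytes. In wild-type thymocytes the lowest, median and highest values were 8.19, 8.47 and 8.89. Every CD2-LMO2 array lay below every array of the other groups, and the Lyl1-knockout and wild-type ranges overlapped. Id3 fell by 1.63 ± 0.24 in CD2-LMO2 against wild-type thymocytes (log2 difference, SE; n = 3 against 6; limma adjusted p = 0.00105). It was higher by 1.47 ± 0.28 in Lyl1-knockout than in CD2-LMO2 thymocytes (n = 3 against 3; limma adjusted p = 0.00635), a call that was lost when only those 2 groups were fitted (adjusted p = 0.0765). Between Lyl1-knockout and wild-type thymocytes the difference was -0.17 ± 0.24 (adjusted p = 0.788), with a 95% interval from -0.70 to 0.37. Without CD2-LMO2 replicate 3, the lowest array for this gene, the differences were -1.32 against wild-type (adjusted p = 0.0035) and 1.15 for Lyl1-knockout against CD2-LMO2 (adjusted p = 0.0167).

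Ets2, an ETS-domain factor that responds to Ras and MAP kinase signals, showed the narrowest spread of the called members in the knockout. Its probe (ILMN_2594714) read 11.92, 11.95 and 12.002 in Lyl1-knockout thymocytes. It read 10.02, 10.73 and 10.21 in CD2-LMO2 thymocytes. The wild-type values ran from 11.13 through a median of 11.40 to 11.52. The 3 groups did not overlap: Lyl1-knockout was highest, wild-type lay between and CD2-LMO2 was lowest. Ets2 fell by 1.03 ± 0.17 in CD2-LMO2 against wild-type thymocytes (limma adjusted p = 0.00173) and was higher by 1.64 ± 0.19 in Lyl1-knockout than in CD2-LMO2 thymocytes (limma adjusted p = 0.000207). The Lyl1-knockout arrays also lay above all 6 wild-type arrays, by 0.60 ± 0.17, which did not pass the threshold (adjusted p = 0.176, 95% interval 0.24 to 0.96). With array weights that difference was 0.67 and passed (adjusted p = 0.00769).

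The stretches upstream of these 2 genes are shown because Id3 and Ets2 were the only members called between genotypes, in the same comparisons. They are the 250 bases before the RefSeq start (GRCm38.p6), on the plus strand at chr4:136143572-136143821 for Id3 and chr16:95702157-95702406 for Ets2. Capitals mark the GATA motif, written GATA or, on the other strand, TATC.
Id3: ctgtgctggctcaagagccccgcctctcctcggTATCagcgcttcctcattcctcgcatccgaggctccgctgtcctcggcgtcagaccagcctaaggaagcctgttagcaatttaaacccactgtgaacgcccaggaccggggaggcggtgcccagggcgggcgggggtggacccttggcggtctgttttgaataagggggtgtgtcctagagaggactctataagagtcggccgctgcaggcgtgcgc
Ets2: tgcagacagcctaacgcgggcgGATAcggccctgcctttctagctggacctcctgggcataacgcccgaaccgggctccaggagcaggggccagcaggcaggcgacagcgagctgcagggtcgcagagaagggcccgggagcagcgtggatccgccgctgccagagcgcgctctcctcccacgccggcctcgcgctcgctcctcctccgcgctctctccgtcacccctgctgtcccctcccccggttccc
Each window held 1 GATA match, which overlapped none of the other motifs searched and lay 217 bases before the start in Id3 and 228 in Ets2. GATA was present in 53.6% of all 32851 windows of this length. The E-box letters CANNTG, present in 66.2% of windows, were in neither, and nor were CTTTG or its reverse CAAAG, the core of the TCF and LEF motif, present in 48.6%. The ETS core GGAA or TTCC, found in 93.4% of windows, occurred 3 times before Id3 and 1 time before Ets2. Among the other members, GATA was also matched in a window of Bcl11b, Tcf7 and Lef1, and in none of Gata3, Runx3, Patz1 and Bcl6. All of these are matches of letters on both strands and say nothing of binding.

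Bcl6 is a zinc-finger repressor induced by the pre-T-cell receptor. Its probe (ILMN_1230353) read 9.76, 9.58 and 9.33 in Lyl1-knockout thymocytes and 8.42, 8.61 and 8.08 in CD2-LMO2 thymocytes. Wild-type replicates 4 to 6 read 8.59, 8.70 and 8.25, against 9.18, 9.55 and 9.63 in replicates 1 to 3. The Lyl1-knockout arrays lay above every CD2-LMO2 array, and the wild-type arrays split, with replicates 4 to 6 near the CD2-LMO2 level and replicates 1 to 3 near the knockout level. The difference between Lyl1-knockout and CD2-LMO2 thymocytes was 1.19 ± 0.34 (limma adjusted p = 0.0558) and passed the threshold under 10 of 23 alternatives, among them the fits without wild-type replicate 2, 3 or 6, with adjusted p from 0.00844 to 0.182 over all of them. CD2-LMO2 minus wild-type was -0.62 ± 0.29 (adjusted p = 0.241) over all wild-type arrays, -0.14 against replicates 4 to 6 alone (0.648) and -1.08 against replicates 1 to 3 alone (0.0198). Lyl1-knockout minus wild-type was 0.57 ± 0.29 (adjusted p = 0.482), with 1.04 against replicates 4 to 6 alone (0.0221) and 0.10 against replicates 1 to 3 alone.

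Patz1, a BTB zinc-finger factor of thymocyte CD8 control, had 3 measured probes and no call. ILMN_2435612 read 8.69, 9.03 and 8.87 in Lyl1-knockout thymocytes and 9.12, 8.53 and 10.05 in CD2-LMO2 thymocytes, and ran from 8.58 through a median of 9.26 to 9.49 in wild-type thymocytes. On each of the 3 probes CD2-LMO2 replicate 3 was the highest of all 12 arrays, at 10.05, 9.19 and 6.93. The log2 differences of the 3 probes ran from -0.60 to -0.37 between Lyl1-knockout and CD2-LMO2 thymocytes and from 0.12 to 0.78 between CD2-LMO2 and wild-type thymocytes. The dimmest probe, ILMN_1227430, was detected on 6 arrays. Its CD2-LMO2 minus wild-type difference of 0.78 ± 0.32 (limma adjusted p = 0.174) became 1.15 (adjusted p = 0.0477) without CD2-LMO2 replicate 2. The 2 brighter probes turned negative in that comparison without CD2-LMO2 replicate 3, at -0.29 and -0.15.

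**Figure D1:**
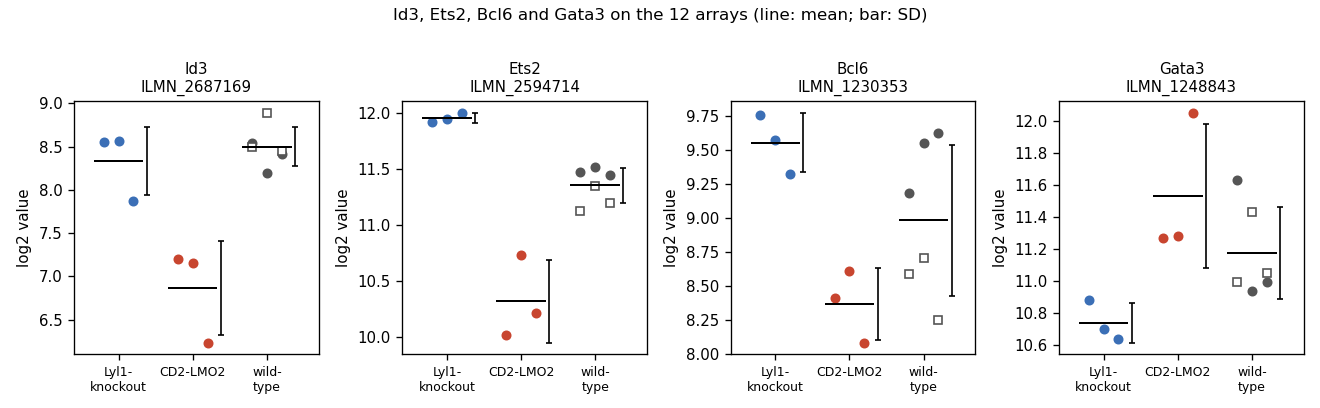
Log2 value (y axis) of the 4 members with 1 measured probe, by genotype (x axis); each point is an array, open squares are wild-type replicates 4 to 6, the line is the mean and the bar the SD. The 3 CD2-LMO2 arrays lie below all other arrays for Id3 and Ets2. The 2 wild-type sets do not overlap for Bcl6 and Ets2, and the difference was called for Bcl6 alone.

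Gata3, a zinc-finger factor needed from the earliest T-cell step, went the other way from Id3 and Ets2 in its values, without a call. Its probe (ILMN_1248843) read 10.88, 10.70 and 10.64 in Lyl1-knockout thymocytes and 11.27, 11.28 and 12.05 in CD2-LMO2 thymocytes. In wild-type thymocytes it ran from 10.93 through 11.02 to 11.63. The Lyl1-knockout arrays lay below every array of both other groups, which overlapped each other. The difference was -0.79 ± 0.25 between Lyl1-knockout and CD2-LMO2 thymocytes (limma adjusted p = 0.0842; 0.041 with a robust variance trend) and -0.43 ± 0.21 between Lyl1-knockout and wild-type thymocytes (adjusted p = 0.471; 0.0476 with array weights). CD2-LMO2 minus wild-type was 0.36 ± 0.21 (adjusted p = 0.363), and 0.10 without CD2-LMO2 replicate 3.

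Together, the groups did not overlap for 4 of 16 probes (Id3, Ets2 and Bcl6 above, Gata3 below) between Lyl1-knockout and CD2-LMO2 thymocytes, against 23.8% of all measured probes (12.4% above, 11.4% below). For CD2-LMO2 against wild-type thymocytes it was 2 of 16 (Id3 and Ets2, both below), against 12.3% and 6.1% below. For Lyl1-knockout against wild-type thymocytes it was 2 of 16 (Ets2 above, Gata3 below), against 7.97% (4.39% above, 3.57% below). These shares lie near the background.

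Bcl11b, the zinc-finger factor that marks commitment, was measured by 4 probes, none of which was called between genotypes. The brightest, ILMN_2611022, read 13.47, 13.24 and 13.37 in Lyl1-knockout thymocytes and 13.34, 13.43 and 13.03 in CD2-LMO2 thymocytes, and from 13.23 through 13.36 to 13.49 in wild-type thymocytes. Its differences were 0.09 ± 0.16 for Lyl1-knockout against CD2-LMO2, -0.09 ± 0.14 for CD2-LMO2 against wild-type and 0.00 ± 0.14 for Lyl1-knockout against wild-type thymocytes, and the last has a 95% interval from -0.30 to 0.30. The second probe, ILMN_2436183, held all 12 arrays between 12.71 and 13.18, and its genotype differences ran from -0.043 to 0.11.

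The 2 dimmer Bcl11b probes spread more. ILMN_2443624 read 11.06, 10.81 and 10.85 in Lyl1-knockout thymocytes and 10.50, 10.94 and 8.82 in CD2-LMO2 thymocytes, and from 10.32 through 10.82 to 11.24 in wild-type thymocytes. CD2-LMO2 replicate 3 differed by -1.90 from the mean of the other CD2-LMO2 arrays here, and the CD2-LMO2 minus wild-type difference of -0.73 ± 0.38 (limma adjusted p = 0.287) shrank to -0.095 without it. ILMN_1223119 read 9.82, 9.98 and 9.46 in Lyl1-knockout thymocytes and 9.58, 10.15 and 8.87 in CD2-LMO2 thymocytes. On the wild-type arrays it separated replicates 4 to 6 (8.73, 8.65 and 8.62) from replicates 1 to 3 (10.08, 10.19 and 10.24).

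Lef1, a high-mobility-group factor that acts with Tcf7, had 2 measured probes, whose values correlated at 0.91 over the 12 arrays. ILMN_2648475 read 10.26, 9.71 and 10.44 in Lyl1-knockout thymocytes and 10.80, 9.29 and 9.17 in CD2-LMO2 thymocytes, and from 10.20 through 10.36 to 10.70 in wild-type thymocytes. ILMN_1239469 read 9.13, 8.34 and 8.58 in Lyl1-knockout thymocytes and 9.74, 7.98 and 6.61 in CD2-LMO2 thymocytes, and from 8.75 through 8.92 to 9.38 in wild-type thymocytes. CD2-LMO2 replicate 1 was the highest of the 12 arrays on both probes, and replicates 2 and 3 lay below every wild-type array. CD2-LMO2 minus wild-type was -0.66 ± 0.31 and -0.89 ± 0.49 (limma adjusted p = 0.238 and 0.324). Without CD2-LMO2 replicate 1 it was -1.19 and -1.70, both past the threshold (0.0044 and 0.0088), and Lyl1-knockout minus CD2-LMO2 was then 0.90 and 1.39 (0.0393 and 0.0485), against 0.38 ± 0.36 and 0.57 ± 0.57 with all arrays. The other 2 Lef1 probes were not above background on any array.

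Ets1, the ETS factor that is abundant in resting T cells, had 3 measured probes that did not move together. ILMN_3157483 read 13.36, 13.26 and 13.20 in Lyl1-knockout thymocytes and 13.38, 12.99 and 14.05 in CD2-LMO2 thymocytes, and from 13.26 through 13.44 to 13.53 in wild-type thymocytes. ILMN_2770739 read 8.11, 7.28 and 7.42 in Lyl1-knockout thymocytes and 8.08, 8.002 and 6.47 in CD2-LMO2 thymocytes, and from 5.72 through 7.09 to 8.56 in wild-type thymocytes. Over the 12 arrays the first correlated at -0.55 and -0.63 with the others, which correlated at 0.87 with each other. CD2-LMO2 replicate 3 was the highest of its group on the first probe and the lowest on both others. No genotype difference was called, and their sizes were at most 0.49 (ILMN_2770739, Lyl1-knockout minus wild-type, SE 0.63, limma adjusted p = 0.753). The remaining Ets1 probe was not above background on any array.

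**Figure D2:**
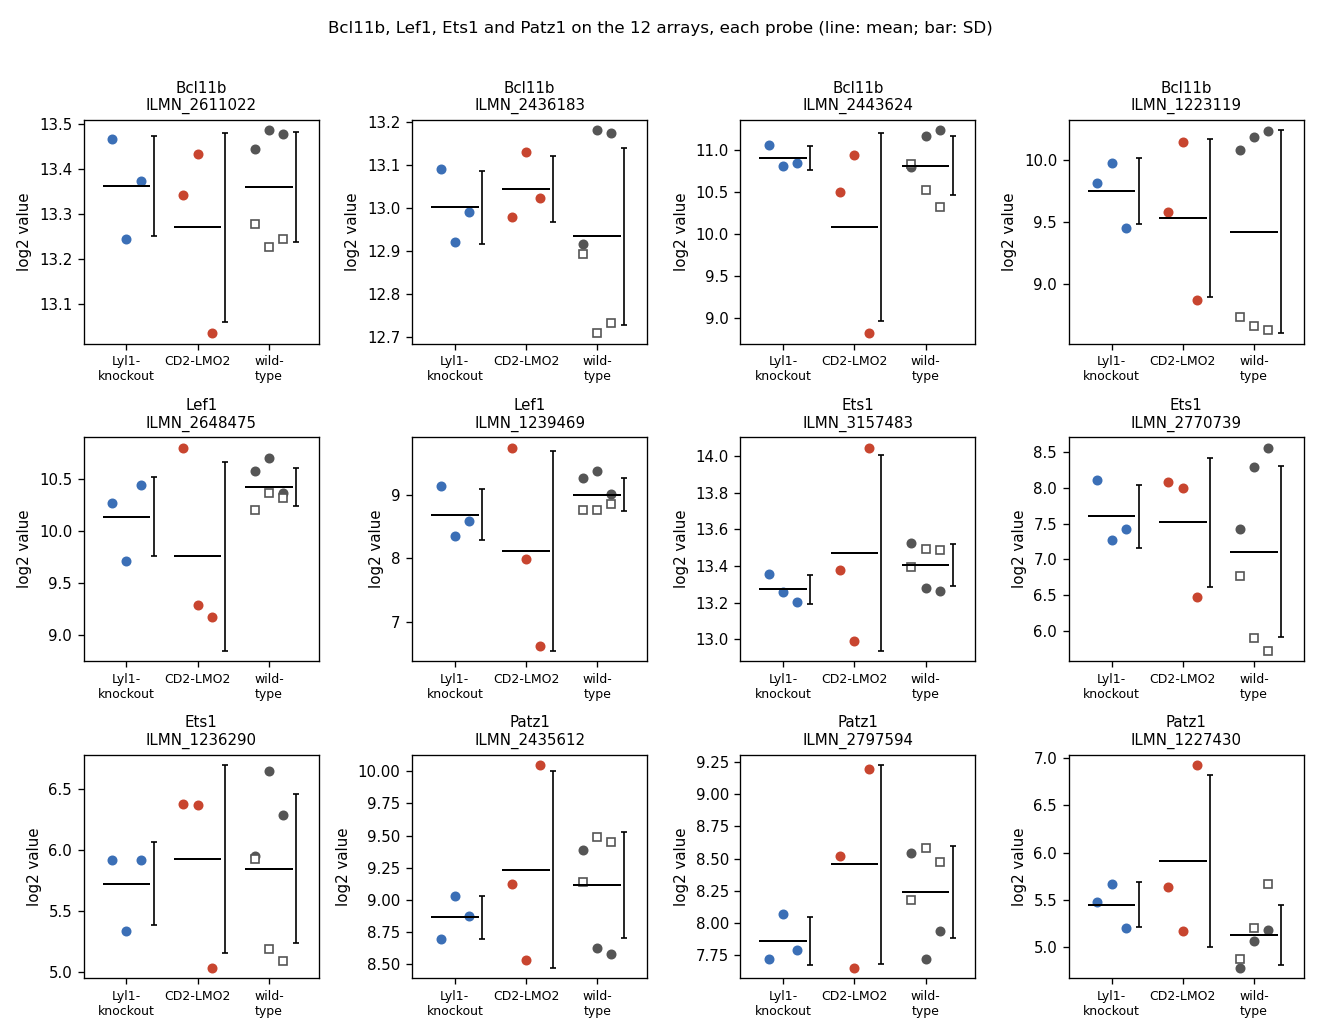
Log2 value (y axis) of each measured probe of Bcl11b, Lef1, Ets1 and Patz1, by genotype (x axis); each point is an array, open squares are wild-type replicates 4 to 6, the line is the mean and the bar the SD. The 3 genotypes overlap on every panel, and CD2-LMO2 replicates spread widely for Lef1. The wild-type sets were called different for Bcl11b ILMN_1223119 and Ets1 ILMN_2770739. Without a call, they also do not overlap for Bcl11b ILMN_2611022 and ILMN_2436183, both Lef1 probes and Ets1 ILMN_1236290.

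The 2 wild-type sets differed among themselves for some members. Between replicates 4 to 6 and replicates 1 to 3, 3 of 16 probes were lower and 0 higher, against 6.27% of all measured probes in either direction, 3.17% as lower and 3.1% as higher. They were Bcl11b ILMN_1223119 (-1.50 ± 0.27, limma adjusted p = 0.0178), Ets1 ILMN_2770739 (-1.97 ± 0.47, 0.0364; 6.76, 5.89 and 5.72 against 7.42, 8.29 and 8.56) and Bcl6 (-0.94 ± 0.20, 0.0272). The sets did not overlap for 9 probes, all lower in replicates 4 to 6, which belong to Bcl11b, Lef1, Ets1, Ets2 and Bcl6. Of all measured probes 38.9% did not overlap, 18.5% as lower. None of the 3 calls held when wild-type replicate 2, 3, 5 or 6 was left out, and 1 held without replicate 4. The median over the 16 probes was -0.26, against 0.02 over all measured probes. With arrays scaled to a common median, which put the median of all probes at 0.25, Ets1 ILMN_2770739 kept its call (-1.63, 0.0469), and Bcl11b ILMN_1223119 (-1.04, 0.0708) and Bcl6 (-0.52, 0.225) did not. Id3 read 8.49, 8.89 and 8.45 in replicates 4 to 6 and 8.55, 8.19 and 8.41 in replicates 1 to 3, and its fall with the transgene held against either set, at -1.75 against replicates 4 to 6 (0.00675) and -1.52 against replicates 1 to 3 (0.0225). Ets2 held likewise, at -0.91 (0.0148) and -1.16 (0.011).

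**Figure D3:**
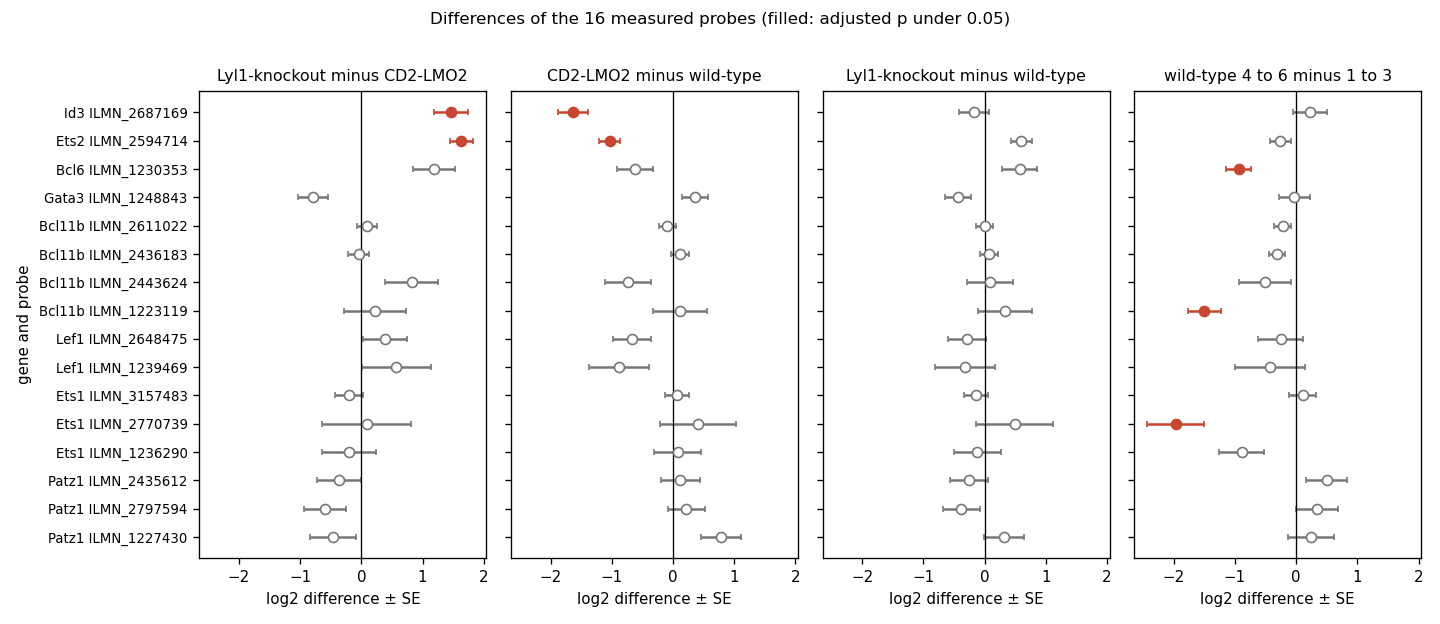
Log2 difference with its SE (x axis) of the 16 measured probes (y axis) in the 3 genotype comparisons and between the 2 wild-type sets; filled points passed an adjusted p under 0.05. Id3 and Ets2 are the filled points of the first 2 panels, the third has none, and the last has 3, all below 0.

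Other genes of the pathway were read from lists that leave the members out, each by its brightest probe. Of 21 measured further transcription factors of early T-cell development, 1 rose and 1 fell with the transgene. The risen gene was Tcf12, an E protein (0.75 ± 0.19, limma adjusted p = 0.0298), and the fallen one Ikzf3, a lymphoid zinc-finger factor (-1.14 ± 0.24, 0.0101). Between Lyl1-knockout and CD2-LMO2 thymocytes 1 fell, Gfi1, a zinc-finger repressor (-0.54 ± 0.15, 0.0469), and between Lyl1-knockout and wild-type thymocytes 0 of 21 were called. The call of Gfi1 was lost under 16 of 23 alternatives, with adjusted p from 0.0127 to 0.497 over all of them. Tcf12 lost its call under 9 of 23 alternatives, with an adjusted p of 0.109 without CD2-LMO2 replicate 3 and 0.275 with the replicate block. Ikzf3 lost its call under 2 of 23, against wild-type replicates 1 to 3 alone (0.0919) and with the replicate block (0.147).

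Among 11 measured paralogues of the members, 1 fell with the transgene: Bcl11a, the lymphoid and progenitor paralogue of Bcl11b (-1.95 ± 0.45, adjusted p = 0.0172; 0.0563 without CD2-LMO2 replicate 3). Between Lyl1-knockout and CD2-LMO2 thymocytes 1 fell, Etv6, an ETS-domain repressor (-1.31 ± 0.34, 0.0363; 0.127 without that array). Between Lyl1-knockout and wild-type thymocytes 0 of 11 were called. Between wild-type replicates 4 to 6 and 1 to 3 the paralogues Runx1 (-1.41 ± 0.21, 0.0124) and Fli1 (-1.01 ± 0.22, 0.0279) were lower. The median of the paralogue list was -0.33 between Lyl1-knockout and CD2-LMO2 thymocytes and 0.13 between CD2-LMO2 and wild-type thymocytes, against 0.02 and -0.01 over all measured probes.

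Of 15 measured genes that T cells switch on around commitment, 3 fell and 1 rose with the transgene: Ptcra, the pre-T-cell receptor chain (-2.78 ± 0.36, adjusted p = 0.000355), Cd28, a costimulatory receptor (-1.79 ± 0.40, 0.0134), and Rag1, the recombinase (-1.57 ± 0.16, 5.68e-05), fell, and Cd6, a CD5-like receptor, rose (0.76 ± 0.13, 0.00309). The call of Cd28 was lost against wild-type replicates 4 to 6 alone (0.0618) and with array weights (0.0544), and that of Cd6 with arrays scaled to 1 median (0.0544) and with the replicate block (0.0897). Against CD2-LMO2 thymocytes, Lyl1-knockout thymocytes were higher for 3 of 15, the same Ptcra (2.85 ± 0.42, 0.000991), Cd28 (2.46 ± 0.46, 0.00514) and Rag1 (1.35 ± 0.19, 0.000759). Against wild-type thymocytes 0 of 15 were called. The list's median difference was -0.035 between Lyl1-knockout and CD2-LMO2 thymocytes and 0.004 between CD2-LMO2 and wild-type thymocytes, close to 0.02 and -0.01 over all measured probes. The mean log2 level of the list ran from 11.57 to 11.61 in Lyl1-knockout, from 11.01 to 11.19 in CD2-LMO2 and from 11.30 to 11.55 in wild-type thymocytes.

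Of 12 measured progenitor genes that commitment silences, Lyl1 and Lmo2 among them, 5 rose and 1, Bcl11a, fell with the transgene. The list's median difference was -0.21, against -0.01 over all measured probes; most called genes had the opposite sign. Between Lyl1-knockout and CD2-LMO2 thymocytes the median was 0.11, against 0.02. Besides Lyl1 (3.55 ± 0.30, adjusted p = 9.93e-06), the largest were Hhex, a homeobox factor (3.59 ± 0.23, 1.94e-06), Cd93, a progenitor surface receptor (3.13 ± 0.25, 6.98e-06), and Nfe2, a leucine-zipper factor (3.09 ± 0.28, 2.09e-05). In Lyl1-knockout against CD2-LMO2 thymocytes 5 of 12 fell. They included Lyl1 itself, the deleted gene, whose fall follows from the genotype. Among the others were Cd93 at -4.27 ± 0.29 and Hhex at -3.48 ± 0.27 (3.61e-06 and 8e-06). In Lyl1-knockout against wild-type thymocytes 1 fell, Lyl1 itself, which was at least 3.67-fold lower (adjusted p = 0.00538; 0.0632 against wild-type replicates 1 to 3 alone).

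**Figure D4:**
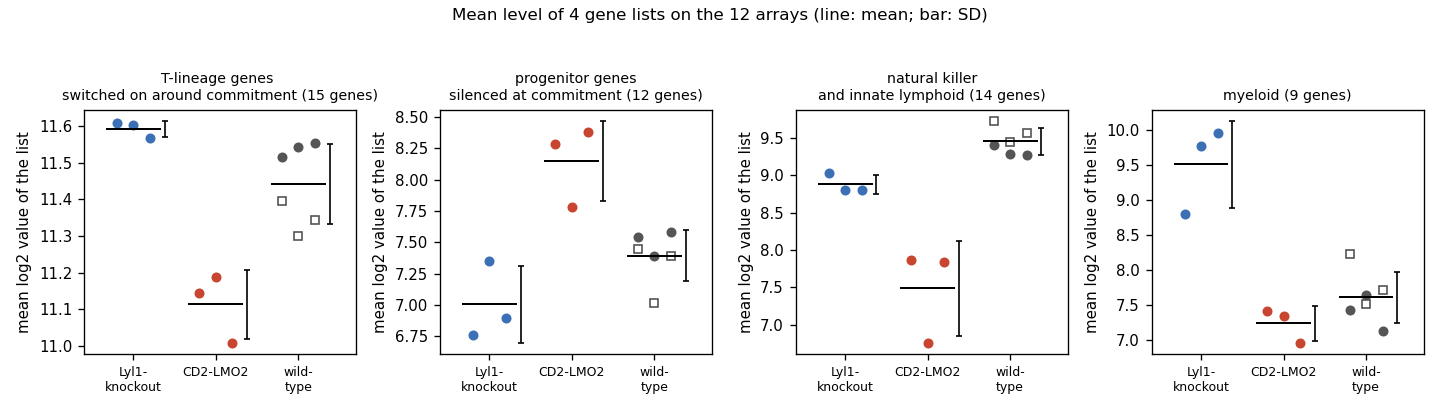
Mean log2 value (y axis) of 4 gene lists by genotype (x axis); each point is an array, open squares are wild-type replicates 4 to 6, the line is the mean and the bar the SD. The T-lineage and natural killer lists are lowest and the progenitor list highest in CD2-LMO2 thymocytes, and the myeloid list is highest in Lyl1-knockout thymocytes. The progenitor list includes Lyl1, the gene deleted in the knockout, and Lmo2, the gene of the transgene.

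Markers of other cells moved with the same comparisons. Of 14 measured natural killer and innate lymphoid markers, 11 fell with the transgene and 0 rose (median -2.25), and 8 rose in Lyl1-knockout against CD2-LMO2 thymocytes (median 1.47). Against wild-type thymocytes 2 were lower in the knockout, the Ly49 receptor Klra3 (-1.60 ± 0.32, adjusted p = 0.0457) and Tbx21, the T-bet factor (-1.40 ± 0.23, 0.0122), and against wild-type replicates 1 to 3 alone 0 were called. The call of Klra3 was lost under 14 of 23 alternatives, among them each Lyl1-knockout or wild-type array left out, and that of Tbx21 under 5 of 23, including Lyl1-knockout replicate 2 (0.0822) or 3 (0.107) left out. Without CD2-LMO2 replicate 3 the first counts were 12 and 10. The mean level of the list ran from 8.81 to 9.03 in Lyl1-knockout, from 6.76 to 7.87 in CD2-LMO2 and from 9.27 to 9.73 in wild-type thymocytes. CD2-LMO2 replicate 2 set the low end, at 6.76 against 7.87 and 7.84 in replicates 1 and 3. Of the list's defining markers, Ncr1 was above background on no array, Eomes on 1 wild-type array, and Klrb1c on all 12. In the comparisons with CD2-LMO2 thymocytes Id3 and Ets2 ran in the direction of this list. Between Lyl1-knockout and wild-type thymocytes the list's median was -0.61, the Id3 difference was -0.17 and the Ets2 difference was 0.60, none of the member differences called. The part of these markers in the member differences was not tested.

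Of 9 measured myeloid markers, 4 were higher in Lyl1-knockout than in CD2-LMO2 thymocytes: the neutrophil genes S100a9 (6.84 ± 1.25, adjusted p = 0.0046), S100a8 (6.12 ± 1.16, 0.00589), Mpo (3.81 ± 0.81, 0.0123) and Elane (2.63 ± 0.53, 0.0087). With only those 2 groups fitted the calls of Mpo (0.131) and Elane (0.11) were lost, and that of Mpo also without Lyl1-knockout replicate 2 (0.0553) or 3 (0.0654). With the transgene 1 rose (C1qb) and 1 fell (Mpo), and 0 were called without CD2-LMO2 replicate 3. Against wild-type thymocytes 1, Elane, was higher in the knockout (2.95 ± 0.46, 0.0105), a call lost under 4 of 23 alternatives, among them the fits against wild-type replicates 1 to 3 alone (0.124) and without Lyl1-knockout replicate 2 (0.0681) or 3 (0.0914). Mpo and Elane were above background on 1 of 3 CD2-LMO2 arrays each, and Elane on 2 of 6 wild-type arrays. Their sizes in comparisons with those groups rest on values near background. S100a9 also differed between wild-type replicates 4 to 6 and 1 to 3 (3.44 ± 0.79, 0.0337). The list ran from 8.80 to 9.96 in Lyl1-knockout, from 6.96 to 7.42 in CD2-LMO2 and from 7.13 to 8.24 in wild-type thymocytes, and Itgam was above background on no array. Its part in the higher Id3 and Ets2 of the knockout arrays was not tested.

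Across the 12 arrays the members fell into patterns of their own, given as a description because the points share arrays and genotypes. By the brightest probe of each gene, Ets2 correlated with Bcl6 (0.81) and Id3 (0.75). Ets1 correlated with Patz1 (0.90), and Bcl11b ran against Patz1 (-0.86). The dimmer measured Ets1 probes ran against the brightest (-0.55 and -0.63), so the Ets1 value depends on the probe. On the probes used here, CD2-LMO2 replicate 3 was the highest of the 12 arrays for Ets1 and Patz1 and the lowest for Bcl11b. Among 9972 other genes those most like Id3 were Vopp1 (0.961), Pstpip1 (0.96) and Bckdhb (0.959), and those most like Ets2 were Afdn (0.964), Trmt61a (0.962) and Itgav (0.959).

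The nearest genes of the remaining members were picked in the same way. They are the highest of 9972 correlations over 12 arrays, and how high such values run for other genes was not measured. Those of Bcl6 were Cipc (0.941), Ctsc (0.938) and Rras2 (0.932), and those of Gata3 were Tert (0.926), Hdac6 (0.923) and Dapk1 (0.907). Those of Bcl11b were Sh2d2a (0.947), Dnajc10 (0.937) and Szrd1 (0.931). The genes most like Lef1 were Gabarapl1 (0.895), Gsto1 (0.891) and Errfi1 (0.882). Ulk1 was near both Ets1 (0.945) and Patz1 (0.959), with Stk4 (0.947) and Taz (0.945) for Ets1 and Ankrd23 (0.969) and Ube3b (0.958) for Patz1.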

How the data were processed

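Expression was measured on 12 Illumina MouseWG-6 arrays of sorted thymocytes. The deposited intensity table holds linear probe intensities that the authors did not normalise between arrays, with a detection p-value per probe and array, per the file headers. The deposited value table holds log2 values with nearly equal distributions; each column matched 1 intensity column, after background correction and quantile normalization with an offset of 16 (neqc), at a correlation of at least 0.9999, so the values are uncentred log2 levels. BeadStudio and limma are named, without versions or order, per the submitters' processing notes. How the authors corrected background is not stated in any source used. The 3 columns whose names add NHD13 to wild-type were read as wild-type.

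Of 45281 probes, 34885 carried 1 gene symbol in GEO's platform annotation, 18 several and 10378 none. Probes with a detection p-value under 0.05 on at least 3 arrays (20651) entered 1 linear model with a mean per genotype over the 12 arrays (limma 3.58.1, R 4.3.3; 9 residual degrees of freedom), tested two-sided with limma's moderated test and Benjamini-Hochberg adjustment. The wild-type sets were compared in a fit with 4 means. A gene of several probes has each probe reported, and list genes their brightest. The script was tested on simulated data with 200 changed probes. The number of arrays limits the precision.

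The members, the gene lists and the tests were chosen with earlier results of these data known. Named genes are all probes of the members, Lyl1, Lmo2, up to 4 called genes per list and comparison by size, and the 3 genes most like each member. The lists cover other transcription factors of early T-cell development, paralogues, T-lineage genes, progenitor genes, and markers of natural killer and innate lymphoid, B-lineage, myeloid, dendritic, gamma-delta T, double-positive and mature T cells. Deviations of same-numbered arrays of different genotypes correlated between -0.51 and 0.315, which does not settle whether they are paired. Promoter windows are from RefSeq (GRCm38.p6) and matched 9 of the 10 members. Alternatives covered the source of values, scaling, filter, probe choice, array weights, variance prior, samples in the fit, a replicate block, the wild-type sets and each array left out.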

Additional observations from a re-analysis of the deposited data

Results flagged for a closer look

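In 31 sets of 6 wild-type values, 1 for each probe of the members and each gene list, the gap between the most extreme array and its neighbour was set against the range, and a share above Dixon's 95% critical value was taken up, which chance gives in about 1 of 20 such sets. For the Lef1 probe ILMN_1233230, wild-type replicate 3 read 4.97, above the other wild-type arrays by 0.772 of the range. That probe was not above background on any array. For the mean of the progenitor genes silenced at commitment, wild-type replicate 5 read 7.01, below the others by 0.661 of the range. No explanation of either value was tested.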

How the results depend on the processing

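Over the 48 genotype differences of the member probes, 998 of 1080 values under the alternatives kept direction and side of the threshold, 22 came to pass it, 1 no longer passed it and 59 changed sign, none of a called difference. The calls of Id3 and Ets2 with the transgene held under each of their 23 alternatives (-1.80 to -1.32 and -1.24 to -0.88), as did Ets2 in Lyl1-knockout against CD2-LMO2 thymocytes (1.48 to 1.84). Where values below differ from those of the report, the cause was not tested. Of the member probes, Ets1 ILMN_1236290 and Patz1 ILMN_1227430 were above background on only 9 and 6 arrays.

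CD2-LMO2 against wild-type thymocytes gave 1825 called probes, 1050 after scaling every array to 1 median (44.8% of them up, against 52.7%), 789 with the replicate block, 3651 against wild-type replicates 4 to 6 alone and 947 against replicates 1 to 3 alone. Sign changes were Bcl11b ILMN_2611022 at 0.022 with scaling, 0.035 with array weights and 0.020 against replicates 4 to 6. With array weights Ets1 ILMN_3157483 was -0.11, Patz1 ILMN_2435612 -0.23 and Patz1 ILMN_2797594 -0.065, and against replicates 4 to 6 Patz1 ILMN_2435612 was -0.13. With the replicate block, as against replicates 1 to 3 alone, Bcl11b ILMN_2436183 was -0.046, Bcl11b ILMN_1223119 -0.64, Ets1 ILMN_2770739 -0.58 and Ets1 ILMN_1236290 -0.37. Leaving out each array gave 2 to 4 called member probes (4 without CD2-LMO2 replicate 1), and ranges across 0 for Bcl11b ILMN_2611022 (-0.17 to 0.028), Bcl11b ILMN_1223119 (-0.19 to 0.45), Ets1 ILMN_3157483 (-0.22 to 0.31), Ets1 ILMN_1236290 (-0.15 to 0.52), Patz1 ILMN_2435612 (-0.29 to 0.47) and Patz1 ILMN_2797594 (-0.15 to 0.62).

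Lyl1-knockout against CD2-LMO2 thymocytes gave 1452 called probes, 949 with scaling (60.1% up, against 46.3%), 700 with only those 2 groups fitted, 949 with the replicate block, and 958 to 1630 leaving out each array. The count of member probes was 4 with a robust variance trend and 2 to 4 leaving out each array (4 without CD2-LMO2 replicate 1). Ets1 ILMN_2770739 was -0.26 with array weights. Ranges across 0 on leaving out each array were Bcl11b ILMN_2611022 -0.026 to 0.17, Bcl11b ILMN_1223119 -0.11 to 0.53, Lef1 ILMN_1239469 -0.18 to 1.39, Ets1 ILMN_3157483 -0.44 to 0.089, Ets1 ILMN_2770739 -0.44 to 0.37, Ets1 ILMN_1236290 -0.65 to 0.026, Patz1 ILMN_2435612 -0.72 to 0.038 and Patz1 ILMN_1227430 -0.83 to 0.048.

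Lyl1-knockout against wild-type thymocytes gave 146 called probes, 4642 with array weights, 224 with only those groups fitted, 31 with the replicate block, 1804 against wild-type replicates 4 to 6, 75 against replicates 1 to 3 and 44 to 183 leaving out each array; 69.1% were up with scaling, against 56.2%. The count of member probes was 3 with array weights and 1 against replicates 4 to 6. With the block, as against replicates 1 to 3, Bcl11b ILMN_2611022 was -0.11, ILMN_2436183 -0.089, ILMN_2443624 -0.16 and ILMN_1223119 -0.42, Ets1 ILMN_2770739 -0.49 and the Lmo2 probe -0.35. Ets1 ILMN_1236290 was 0.079 with array weights and 0.33 against replicates 4 to 6. Ranges across 0 on leaving out each array were Bcl11b ILMN_2611022 -0.050 to 0.061, Bcl11b ILMN_2443624 -0.007 to 0.17, Ets1 ILMN_1236290 -0.27 to 0.074 and Id3 -0.28 to 0.062.

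Between wild-type replicates 4 to 6 and 1 to 3 there were 1295 called probes, 288 with scaling, 7827 with array weights and 32 to 1865 leaving out each array. The fits leaving out an array were chosen after seeing the data. The member probes numbered 1 with scaling, 1 with 1 probe per gene, 7 with array weights and 0 to 3 leaving out each array. Scaling moved the median of all probes to 0.25, and Gata3 to 0.26, Lef1 ILMN_2648475 to 0.085, Ets2 to 0.035 and Lyl1 to 0.20. Gata3 was 0.15 with array weights and -0.17 to 0.19, and Lyl1 -0.12 to 0.18, leaving out each array. Whether same-numbered arrays are paired is not stated in the labels. Their deviations from the group mean correlated at -0.003 to 0.154 between Lyl1-knockout and CD2-LMO2 arrays. The range was -0.033 to 0.155 between Lyl1-knockout and wild-type and -0.51 to 0.315 between CD2-LMO2 and wild-type arrays. These values cannot settle pairing, because wild-type deviations from the mean of both sets also carry the difference between the sets. With the block the member calls numbered 3 in each of the comparisons with CD2-LMO2, Bcl6 being the added one (adjusted p = 0.0304 for Lyl1-knockout against CD2-LMO2 and 0.0474 for CD2-LMO2 against wild-type).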

Other observations

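Markers of the other thymic cell types were also read, by their brightest probes. Of 7 mature T-cell markers, 3 rose in Lyl1-knockout against CD2-LMO2 thymocytes: Ctla4 (2.80 ± 0.35, limma adjusted p = 0.000324), Icos (2.50 ± 0.62, 0.0281) and Cd44 (1.26 ± 0.20, 0.00172). The call of Icos was lost under 6 of 23 alternatives, among them the fits without CD2-LMO2 replicate 2 (0.0683) and without Lyl1-knockout replicate 1 (0.122) or 2 (0.0672). Of the same 7, 2 fell with the transgene, Ctla4 (-3.14 ± 0.30, 3.21e-05) and Cd44 (-1.25 ± 0.17, 0.000587). The list level ran from 9.10 to 9.41 in Lyl1-knockout, from 7.72 to 8.62 in CD2-LMO2 and from 9.15 to 9.33 in wild-type thymocytes. CD2-LMO2 replicate 2 set the low end, against 8.49 and 8.62 in replicates 1 and 3. Of 7 double-positive thymocyte markers, 2 rose and 1 fell in Lyl1-knockout against CD2-LMO2 thymocytes, with Cd8b1 up (2.08 ± 0.29, 0.000763) and Dntt, the terminal transferase, down (-1.10 ± 0.16, 0.00122). With the transgene 2 of these 7 fell and 1 rose. The fallen were Cd8b1 (-2.26 ± 0.25, 0.000105) and Rag1, which is also in the T-lineage list above. The risen gene was Cd1d1 (0.55 ± 0.15, 0.0385), a call lost under 14 of 23 alternatives, among them each CD2-LMO2 array left out. Themis was lower in wild-type replicates 4 to 6 than in replicates 1 to 3 (-1.10 ± 0.17, 0.0124).

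Of 7 dendritic markers, 3 fell with the transgene, H2-DMa (-2.12 ± 0.36, 0.00278), Irf8 (-1.58 ± 0.30, 0.00592) and Siglech (-1.42 ± 0.29, 0.00845), and 1, H2-DMa, was higher in Lyl1-knockout than in CD2-LMO2 thymocytes (2.05 ± 0.42, 0.00963). Siglech lost its call with the replicate block (0.102), and H2-DMa in the second comparison with only those 2 groups fitted (0.0678). The wild-type sets differed on this list, at 9.19 to 9.77 in replicates 4 to 6 and 10.77 to 10.86 in replicates 1 to 3, with H2-Aa (-2.67 ± 0.48, 0.0173) and H2-Eb1 (-1.93 ± 0.45, 0.035) lower in replicates 4 to 6 and a list median of -1.44. The list ran from 9.42 to 10.20 in Lyl1-knockout and from 8.11 (replicate 2) to 9.51 in CD2-LMO2 thymocytes. Of 4 gamma-delta T-cell markers only Sox13 was called, 1.68 ± 0.19 higher with the transgene (0.00012) and -1.57 ± 0.22 in Lyl1-knockout against CD2-LMO2 thymocytes (0.000744). Of 7 B-lineage markers only Cd72 was called, at -2.16 ± 0.34 with the transgene (0.00161) and 2.31 ± 0.40 in Lyl1-knockout against CD2-LMO2 thymocytes (0.00306). Against wild-type thymocytes 0 B-lineage, dendritic, gamma-delta and mature T-cell markers were called in the knockout, and 1 double-positive marker, Dntt (-0.78 ± 0.14, 0.0265). That call was lost under 10 of 23 alternatives, with arrays scaled to 1 median (0.424), with the replicate block (0.342), against wild-type replicates 1 to 3 alone (0.178), on leaving out each Lyl1-knockout array (0.0507 to 0.194) and without wild-type replicate 3, 4, 5 or 6 (0.0501 to 0.0625).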
